A study of Mus musculus with 10 samples.

Results

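Kupffer cell and macrophage markers were followed in whole mouse liver after an ethanol binge, using 10 genes chosen by name: Adgre1, Clec4f, Vsig4, Timd4, Marco, Cd5l and Cd163, which mark or are enriched in resident macrophages; Cd68 and Csf1r, which macrophages share with monocytes; and Ccr2, which marks recruited monocytes. Members were found on the array by the RefSeq accession that each probe carries, and 9 of the 10 had a probe named in this way, with 12 probes between them. Cd68 was not analysed here. Members made up 9 of the 17016 genes that could be named on the array and 8 of the 26124 genes tested, named or not; the Timd4 probe was too dim on most arrays to be tested.

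The livers came from male C57BL/6N mice in 3 groups. The control group of 3 mice received maltose by gavage, matched in calories to 5 g/kg ethanol. A group of 4 mice received 5 g/kg ethanol and a group of 3 mice received 7 g/kg ethanol, so the 7 g/kg dose had no calorie-matched control of its own. Age and the time from gavage to liver collection are not given in the sources used here.

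Each array compared 1 liver, labelled with Cy5, with a commercial mixed mouse RNA, labelled with Cy3, and the unit throughout is the log2 ratio of liver over that reference after normalization. The labels name the reference as an assorted mouse RNA but also give liver as its tissue, so what it holds is not settled here. A ratio of 0 means equal signal in both channels, and ratios of different probes are not set against each other because the reference differs from gene to gene. The 10 arrays lay on 4 slides, and the median liver signal per array was 121 to 219 over a median background of 21 to 24. The liver label was checked with hepatocyte genes: all 6 of those tested were well above background on every array. Their median liver signal per array was 45679.5 to 87452, and their median ratio was 0.30 to 1.09. These values do not settle what the reference holds.

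Kupffer cells are the resident macrophages of the liver sinusoids, where they clear bacteria, aged red cells and debris from portal blood. They keep their own numbers through growth signals at the CSF1 receptor. When Kupffer cells die after an injury, monocytes that carry the chemokine receptor CCR2 can enter the liver, first lacking resident markers such as CLEC4F and TIMD4 and later acquiring them. Transcripts of the resident set and of Ccr2 are therefore commonly read side by side in alcohol-related and other acute liver injury.

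None of the 8 tested members differed between any of the 3 groups at an adjusted p under 0.05. With only 8 genes and the shares of all genes given below, counts of 0 do not set the members apart. At 5 g/kg against control, limma called 0 of 8 members, where 3.77% of all genes tested were called, and 0 of 8 at an unadjusted p under 0.05, against 15.5% of all genes. For 7 g/kg against control it called 0 of 8 members, against 9% of all genes, and 1 of 8 at an unadjusted p under 0.05, against 20.1%. Between the doses it called 0 of 8, against 1.57% of all genes, and 1 of 8 unadjusted, against 10.8%. The member under the unadjusted threshold was Adgre1, which encodes F4/80, in both cases.

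The intervals give the range of change that the arrays leave for the markers. Across the 8 members, the 95% intervals of the change reached from 0.700-fold to 1.49-fold at 5 g/kg against control, from 0.650-fold to 1.55-fold at 7 g/kg against control, and from 0.693-fold to 1.32-fold between the doses. A member had to change by 0.39 to 0.58 on the log2 scale to pass the test at 7 g/kg against control, and by 0.42 to 0.62 at 5 g/kg. Smaller measured changes did not pass with these numbers of mice, and a true change of this size can be missed. The normalization adds a constant that pulls the ratios of dim probes towards 0, and with plain background subtraction, which does not, the intervals at 7 g/kg against control ran from 0.568-fold to 1.63-fold. They were wider again with the scanner's own ratio, from 0.50-fold to 1.90-fold, and with Cy5 alone, from 0.550-fold to 2.01-fold; at 5 g/kg the scanner's ratio gave 0.567-fold to 1.79-fold. Fewer macrophages and less transcript per macrophage cannot be told apart in whole liver.

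**Figure D1:**
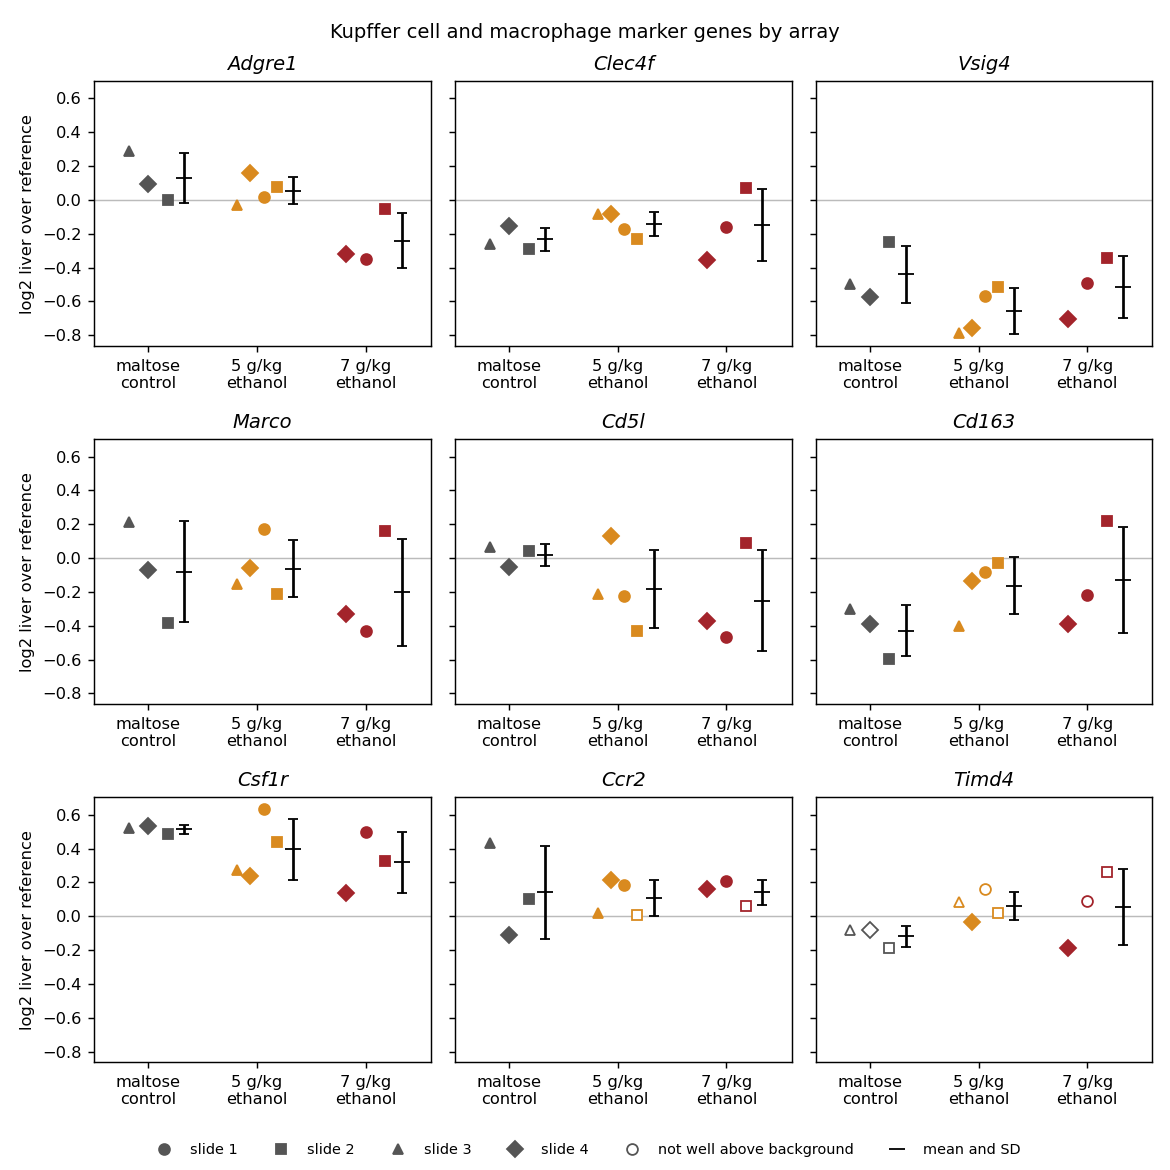
The log2 ratio of liver over reference (vertical axis) of 9 marker genes in each mouse of the 3 groups (horizontal axis), with symbols for the slide, open symbols where the probe was not well above background, and the mean and SD of each group. Adgre1 at 7 g/kg lies below the other groups, and Timd4 at 5 g/kg lies above the controls, with mostly open symbols; the groups overlap in each of the other 7 genes.

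Adgre1 encodes F4/80, an adhesion receptor of the surface of mouse macrophages that is the standard marker of Kupffer cells in tissue sections. Its ratio was 0.29, 0.097 and 0.0020 in the 3 control livers and -0.030, 0.16, 0.016 and 0.076 in the 4 livers at 5 g/kg. In the 3 livers at 7 g/kg it was -0.32, -0.35 and -0.053. The highest 7 g/kg liver lay below the lowest liver of both other groups, and the controls and the 5 g/kg livers overlapped. The difference at 7 g/kg against control was -0.37 on the log2 scale (SE 0.12, 95% interval -0.62 to -0.12), with an unadjusted p of 0.00665 and a limma adjusted p of 0.0658. Groups that do not overlap with the ethanol group lower were found for 12.3% of all genes at 7 g/kg against control, and with 7 g/kg below 5 g/kg for 6.13%. Against 5 g/kg the difference was -0.30 (SE 0.11) with an adjusted p of 0.296, and at 5 g/kg against control it was -0.075 (SE 0.11) with an adjusted p of 0.822.

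The Adgre1 difference at 7 g/kg sits close to the threshold and crosses it under other choices. Without 7 g/kg replicate 3, whose value was nearest to the controls, the difference was -0.46 and the adjusted p was 0.0321. With plain background subtraction it was -0.51 with an adjusted p of 0.0454, and with Cy5 alone it was -0.12 with an adjusted p of 0.908. On the 2 slides that held both groups it was -0.42 and -0.056. The tested probe was dim, with a liver signal of 57 to 127, and the other Adgre1 probe was not well above background on any array, so it gives no second reading.

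Clec4f encodes a C-type lectin found in mice on Kupffer cells almost alone. Its ratio was -0.26, -0.16 and -0.29 in the controls and -0.084, -0.083, -0.17 and -0.23 at 5 g/kg. The 7 g/kg livers had -0.36, -0.16 and 0.068. The lowest and the highest of the 10 livers were both in the 7 g/kg group, and the groups overlapped. The difference from control was 0.091 at 5 g/kg (95% interval -0.14 to 0.32, adjusted p = 0.777 by limma) and 0.084 at 7 g/kg (95% interval -0.17 to 0.33, adjusted p = 0.786). This probe was bright, with a liver signal of 1229 to 3163.

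Vsig4 encodes the complement receptor CRIg, with which Kupffer cells capture bacteria coated with complement. Its ratio was -0.50, -0.57 and -0.25 in the controls and -0.79, -0.76, -0.57 and -0.51 at 5 g/kg. At 7 g/kg it was -0.71, -0.49 and -0.34. The 2 lowest livers were at 5 g/kg, yet the groups overlapped. The difference at 5 g/kg was -0.22 (95% interval -0.47 to 0.042, adjusted p = 0.439 by limma) and lay below 0 on 3 of 3 slides that held both groups, from -0.29 to -0.19. At 7 g/kg it was -0.074 (95% interval -0.35 to 0.20, adjusted p = 0.839). At 5 g/kg against control, Clec4f also lay above 0 on 3 of 3 slides and the tested Csf1r probe below 0 on 3 of 3. The share of all genes with such an order is not given here.

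Timd4 encodes TIM-4, a receptor for the phosphatidylserine of dying cells that marks the embryonically seeded Kupffer cells and is absent from newly arrived monocytes. Its probe was well above background in 2 of the 10 livers only, 1 at 5 g/kg and 1 at 7 g/kg, both on the same slide, and in 0 of 3 controls. It was therefore not tested. Its measured ratios were -0.085, -0.080 and -0.19 in the controls and 0.087, -0.032, 0.16 and 0.021 at 5 g/kg. The 7 g/kg livers had -0.19, 0.088 and 0.26. The 2 livers with a measured signal had the lowest ratio of their own groups. The livers at 5 g/kg lay above the controls, and those at 7 g/kg overlapped with both other groups. Most of these signals were not well above background, and the share of all genes with such an order is not given here. The order is therefore not read as a difference.

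Marco encodes a class A scavenger receptor that binds bacteria. Its ratio was 0.22, -0.073 and -0.38 in the controls and -0.15, -0.057, 0.17 and -0.21 at 5 g/kg. At 7 g/kg it was -0.33, -0.43 and 0.16. High and low livers occurred in every group, and the groups overlapped throughout. The difference from control was 0.016 at 5 g/kg (95% interval -0.33 to 0.36, adjusted p = 0.982 by limma) and -0.12 at 7 g/kg (95% interval -0.49 to 0.25, adjusted p = 0.795). Marco had the widest interval of the 8 members, and its SD within groups, 0.258, was at the 90.2th percentile of all genes, whose median was 0.155.

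Cd5l encodes AIM, a secreted protein that macrophages release to bind dead cells and lipid droplets. Its ratio was 0.067, -0.055 and 0.042 in the controls and -0.21, 0.13, -0.22 and -0.43 at 5 g/kg. The 7 g/kg livers had -0.37, -0.47 and 0.089. The 3 controls lay close together, and in each ethanol group all livers but 1 lay below them; 5 g/kg replicate 2 and 7 g/kg replicate 3 lay above all controls. The difference from control was -0.20 at 5 g/kg (95% interval -0.51 to 0.11, adjusted p = 0.591 by limma) and -0.27 at 7 g/kg (95% interval -0.60 to 0.066, adjusted p = 0.388).

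Cd163 encodes the scavenger receptor for complexes of haemoglobin and haptoglobin. Its ratio was -0.30, -0.39 and -0.60 in the controls and -0.40, -0.14, -0.081 and -0.029 at 5 g/kg. At 7 g/kg it was -0.39, -0.22 and 0.22. It was the member whose ethanol means lay farthest above control at both doses, and 3 of 4 livers at 5 g/kg and 2 of 3 at 7 g/kg were above every control. The difference was 0.27 at 5 g/kg (95% interval -0.040 to 0.57, adjusted p = 0.414 by limma) and 0.30 at 7 g/kg (95% interval -0.029 to 0.63, adjusted p = 0.308). Both comparisons use the same 3 controls.

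Csf1r encodes the receptor for CSF1 and IL-34, on which macrophage survival depends. The tested probe, the brightest of 3, gave a ratio of 0.52, 0.54 and 0.49 in the controls and 0.28, 0.24, 0.63 and 0.44 at 5 g/kg. The 7 g/kg livers had 0.14, 0.50 and 0.32. The controls spanned a narrow range, with an SD of 0.026, and 5 of the 7 ethanol livers lay below all controls, 1 within their range and 1, at 5 g/kg, above it. The difference from control was -0.12 at 5 g/kg (95% interval -0.37 to 0.13, adjusted p = 0.721 by limma) and -0.20 at 7 g/kg (95% interval -0.47 to 0.074, adjusted p = 0.450).

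The 3 Csf1r probes did not give the same difference at 7 g/kg. The next brightest probe gave 0.014, with an adjusted p of 0.969 over all probes. The dimmest gave -0.27 with an adjusted p of 0.242, with ratios of -0.043, -0.22 and -0.33 in the controls and -0.49, -0.49 and -0.42 at 7 g/kg. On that dimmest probe the 7 g/kg livers lay below all controls, while on the next brightest probe the groups overlapped. Such an order, lower at 7 g/kg than in the controls, was found for 12.3% of all genes.

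Ccr2, the receptor through which CCL2 draws monocytes out of the bone marrow and into tissue, was the member closest to no difference at 7 g/kg against control. Its ratio was 0.43, -0.11 and 0.099 in the controls and 0.021, 0.22, 0.18 and 0.0097 at 5 g/kg. At 7 g/kg it was 0.16, 0.21 and 0.060. The highest and the lowest of the 10 livers were both controls. The difference from control was -0.033 at 5 g/kg (95% interval -0.30 to 0.23, adjusted p = 0.944 by limma) and 0.00090 at 7 g/kg (95% interval -0.28 to 0.28, adjusted p = 0.999). Its probe was dim, with a liver signal of 53.5 to 130, and was well above background in 8 of 10 livers.

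**Figure D2:**
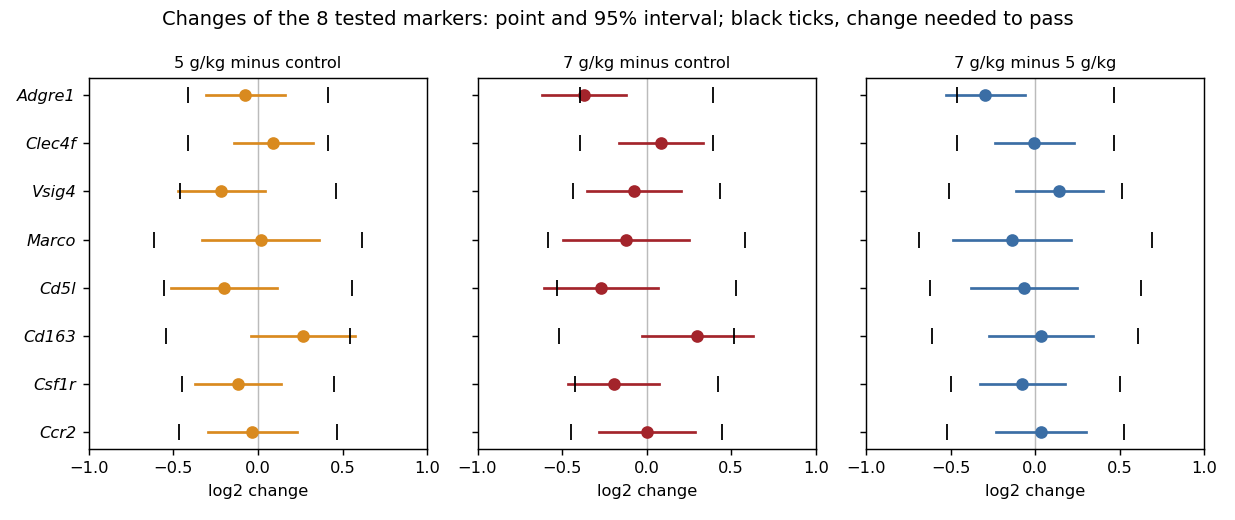
The log2 change (horizontal axis) of the 8 tested marker genes (vertical axis) in the 3 comparisons, with the 95% interval as a line and, as black ticks, the change that would have reached an adjusted p of 0.05. No point lies beyond its ticks, and Adgre1 at 7 g/kg against control, at -0.37, lies nearest to them.

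Between the 2 ethanol doses, the markers differed by -0.30 for Adgre1 to 0.14 for Vsig4, both on the log2 scale. The Vsig4 difference had a 95% interval of -0.12 to 0.40 and an adjusted p of 0.769 by limma. The other 6 members lay between these, with adjusted p-values of 0.847 to 0.992. By its tested probe, Csf1r was lower at 7 g/kg than at 5 g/kg on 3 of 3 slides that held both doses. Adgre1 was lower on 3 of 3 too, and Vsig4 was higher on 3 of 3. The next brightest Csf1r probe gave 0.037 between the doses, and the dimmest gave -0.26. The share of all genes with the same sign on every slide is not given here, so these orders are not read as differences. The 6 tested resident markers did not lie on 1 side of control: Clec4f and Cd163 lay above control and Vsig4, Cd5l and Adgre1 below it at both doses.

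The livers of the 7 g/kg group spanned the widest range in the mean of their resident markers, though not in each marker alone. The mean of the 6 tested resident markers, as the log2 ratio minus the control mean, was 0.092, -0.018 and -0.073 in the controls and -0.11, 0.048, 0.030 and -0.051 at 5 g/kg. At 7 g/kg it was -0.24, -0.18 and 0.20, so that the 3 livers of this group held the 2 lowest values and the highest of all 10. In 7 g/kg replicate 3, 5 of 6 resident markers were above their control mean, and in replicate 1, 1 of 6 was. Whether the spread differed between groups was not tested.

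**Figure D3:**
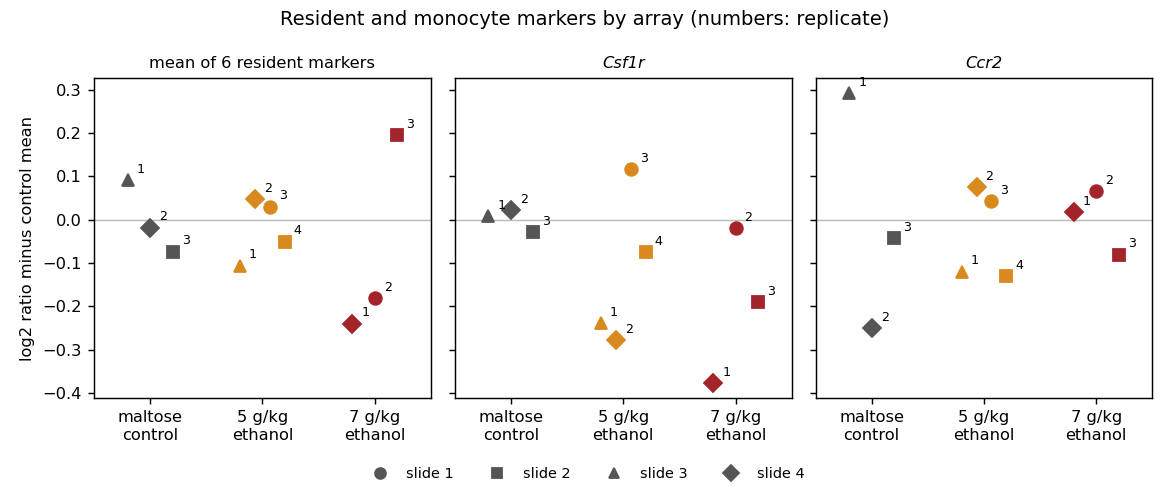
The log2 ratio minus the control mean (vertical axis) in each mouse of the 3 groups, for the mean of the 6 tested resident markers, for Csf1r and for Ccr2, with replicate numbers and symbols for the slide. The highest resident mean, 0.20, is that of 7 g/kg replicate 3, and replicate 1 of that group has the lowest resident mean, -0.24, and the lowest Csf1r value, -0.38.

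From mouse to mouse, the markers varied together in some pairs and not in others. Over the 10 arrays, the Pearson correlation of the 28 pairs of members ranged from -0.26 to 0.66, with a median of 0.14. The closest pairs were Adgre1 with Cd5l, at 0.66, Adgre1 with Marco, at 0.65, and Clec4f with Cd163, at 0.64. After subtraction of each group's mean, the median was 0.32 and Adgre1 with Cd163 reached 0.82. Ccr2 correlated at most 0.27 with any other member before that subtraction, with Marco, and at most 0.34 after it, with Adgre1. The arrays share the reference and the 4 slides, so these values describe the libraries and carry no test.

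No member was among the 3 genes whose ratios were most like those of Adgre1, Clec4f or Ccr2 over the 10 arrays. Among 13555 genes with a symbol and a value on all arrays, the ratios closest to those of Adgre1 were Onecut2 at a correlation of 0.97, F11r at 0.95 and Cuedc2 at 0.95. For Clec4f they were Relch at 0.94, Lrrk2 at 0.94 and Ebpl at 0.92. For Ccr2 they were Klk9 at 0.88, Bnip2 at 0.86 and Olfr549 at 0.86. With 10 arrays and this many genes, values of this size are reported as a description.

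Other genes enriched in Kupffer cells were read beside the members, from a list of 20, of which 19 were tested. Beside this and the following lists, 2.21% of all genes were called higher and 1.56% lower at 5 g/kg. At 7 g/kg the shares were 4.67% and 4.33%, and between the doses 0.662% and 0.907%. Whether a list's count differs from these shares was not tested. In the 7 g/kg livers, 3 rose and 2 fell, and the median difference over the 19 was 0.039, against 0.012 over all genes. Hmox1, the haem-degrading enzyme induced by oxidative stress, rose by 1.01 on the log2 scale (SE 0.15, adjusted p = 0.000696 by limma). Cd38, an NAD-consuming ectoenzyme, rose by 0.84 (SE 0.16), and C6, a component of the membrane attack complex, rose by 0.58 (SE 0.11). A dimmer Cd38 probe rose by 0.43, with a limma adjusted p of 0.0384 over all probes. Hpgd, which inactivates prostaglandins, had a change of -1.10 (SE 0.21), and Nr1h3, which encodes the sterol receptor LXR-alpha, one of -0.78 (SE 0.16); both fell. Each of these 5 genes is also transcribed by cells other than macrophages, hepatocytes among them for Hmox1, C6 and Nr1h3. Each call was lost with Cy5 alone, where adjusted p-values were 0.0546 to 0.165.

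Of the genes of that list named here by rule, the following did not pass the test at 7 g/kg. Folr2, the folate receptor of resident macrophages, differed by -0.073 (SE 0.12), and Spic, the factor of iron-recycling macrophages, by -0.019 (SE 0.10). C1qa, which encodes a chain of the complement starter C1q that macrophages make, differed by 0.11 (SE 0.17). Id3, a regulator that Kupffer cells need, differed by 0.52 (SE 0.22) with an adjusted p of 0.190.

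At 5 g/kg, 1 of the 19 rose and 1 fell. Cd38 rose by 0.78 (SE 0.15, adjusted p = 0.00788 by limma) and Hpgd fell, with a change of -0.86 (SE 0.20, adjusted p = 0.0235). The Cd38 call was lost without control replicate 1 (adjusted p = 0.0516), and the Hpgd call without control replicate 2 or 3 or 5 g/kg replicate 1 or 3 (adjusted p = 0.0651 to 0.127). Both calls were lost with Cy5 alone (adjusted p = 0.246 for Cd38 and 0.216 for Hpgd), and that of Hpgd with the scanner's ratio (adjusted p = 0.0533). A dimmer Cd38 probe gave 0.39 at 5 g/kg, with a limma adjusted p of 0.0728 over all probes. Between the doses, C6 was higher by 0.49 (SE 0.10, adjusted p = 0.0273) and Hmox1 by 0.65 (SE 0.14, adjusted p = 0.0336) at 7 g/kg. Both calls were lost on leaving out any 7 g/kg liver or 5 g/kg replicate 1 or 4, and that of C6 also without 5 g/kg replicate 2 (adjusted p = 0.0629 to 0.0951 for C6 and 0.0797 to 0.138 for Hmox1). With slide as a block the C6 call was lost too (adjusted p = 0.0590), and both were lost with plain background subtraction, Cy5 alone or the scanner's ratio.

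Monocyte and monocyte-derived macrophage genes were read beside Ccr2. Of 13 tested from a list of 20, 2 rose at 7 g/kg and 0 fell, with a median of 0.066. Cd9, a tetraspanin, rose by 1.04 (SE 0.17, adjusted p = 0.00139 by limma), and Plac8, which is found in Ly6C-high monocytes, rose by 0.70 (SE 0.14, adjusted p = 0.00660). Both genes are transcribed in other cells as well. Their ratios at 7 g/kg were 0.40, 0.30 and 0.35 for Cd9 and 0.25, 0.054 and 0.48 for Plac8, above all 3 controls in both cases. The share of all genes with that order is not given here.

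Lyz2, Itgam and Cx3cr1, of the same list, did not pass at 7 g/kg. Lyz2, lysozyme of monocytes, macrophages and neutrophils, had a ratio of -0.069, 0.040 and -0.18 in the controls and -0.66, -0.74 and -0.18 at 7 g/kg, a difference of -0.46 (SE 0.14) with an adjusted p of 0.0583. The other Lyz2 probe, almost as bright, gave -0.26 with a limma adjusted p of 0.275 over all probes. Itgam, which encodes CD11b, differed by 0.055 (SE 0.16), and Cx3cr1, the fractalkine receptor, by -0.020 (SE 0.12). At 5 g/kg Plac8 rose by 0.59 (SE 0.14, adjusted p = 0.0244), and Spp1, osteopontin, which bile duct cells also make, fell, with a change of -0.48 (SE 0.10, adjusted p = 0.0188). The Plac8 call at 5 g/kg was lost without control replicate 1 or 3 or 5 g/kg replicate 2 or 3 (adjusted p = 0.0590 to 0.138), and that of Spp1 without control replicate 2 or 3 or 5 g/kg replicate 3 (adjusted p = 0.0528 to 0.0906). Both calls were also lost with Cy5 alone (limma adjusted p = 0.244 for Plac8 and 0.397 for Spp1). That of Spp1 was lost with median centring (adjusted p = 0.0898) and with the replicate block (adjusted p = 0.0533) as well. Ly6c2 had no probe named here.

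Genes shared by phagocytes of all kinds gave 1 rise among 20 tested at each dose, Cd14. Cd14 encodes the lipopolysaccharide co-receptor of monocytes and macrophages, and hepatocytes also produce it in the acute-phase response. Its ratio was -1.33, -0.83 and -1.52 in the controls and 0.23, 0.75 and -0.27 at 7 g/kg. The 5 g/kg livers gave -0.019, 0.48, 0.23 and 0.28. All 7 ethanol livers lay above all 3 controls, an order whose share among all genes is not given here. The difference from control was 1.47 at each dose (SE 0.21 and adjusted p = 0.00132 at 5 g/kg, SE 0.22 and adjusted p = 0.000822 at 7 g/kg, both by limma). The median difference over the 20 genes was -0.013 at 5 g/kg and 0.067 at 7 g/kg.

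The ligands of the 2 receptors among the members did not change at a level these arrays could call. CSF1 and IL-34 act on the CSF1 receptor, and CCL2, CCL7, CCL8 and CCL12 on CCR2. Ccl2 was 0.35 above control at 5 g/kg (SE 0.099, adjusted p = 0.0661 by limma) and 0.30 above at 7 g/kg (SE 0.11, adjusted p = 0.109), with ratios of -0.31, -0.080 and -0.046 in the controls against 0.18 to 0.23 at 5 g/kg and 0.054 to 0.25 at 7 g/kg. All 7 ethanol livers were above all 3 controls for Ccl2, an order whose share among all genes is not given here. In the 7 g/kg livers, Csf1 differed by 0.20 (SE 0.15), Ccl7 by -0.095 (SE 0.10), Ccl8 by -0.18 (SE 0.17) and Il34 by -0.0047 (SE 0.13). Of the 5 tested, limma called 0 in each comparison, with 2, 1 and 1 at an unadjusted p under 0.05 at 5 g/kg against control, 7 g/kg against control and between the doses. Ccl12 was too dim to be tested.

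Genes that activated macrophages express stayed without a call as well. Of 15 tested from a list of 20, limma called 0 in every comparison, with 1 at an unadjusted p under 0.05 in each. Tnf differed from control by -0.062 (SE 0.11) at 5 g/kg and by 0.062 (SE 0.12) at 7 g/kg. Il1b differed by 0.064 (SE 0.088) and 0.046 (SE 0.094), and was well above background in 7 of 10 livers. Tgfb1 had the smallest p of the list, with 0.37 at 5 g/kg (SE 0.10, adjusted p = 0.0604) and 0.29 at 7 g/kg (SE 0.11, adjusted p = 0.123). Il6 was well above background in 1 liver and was not tested.

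**Figure D4:**
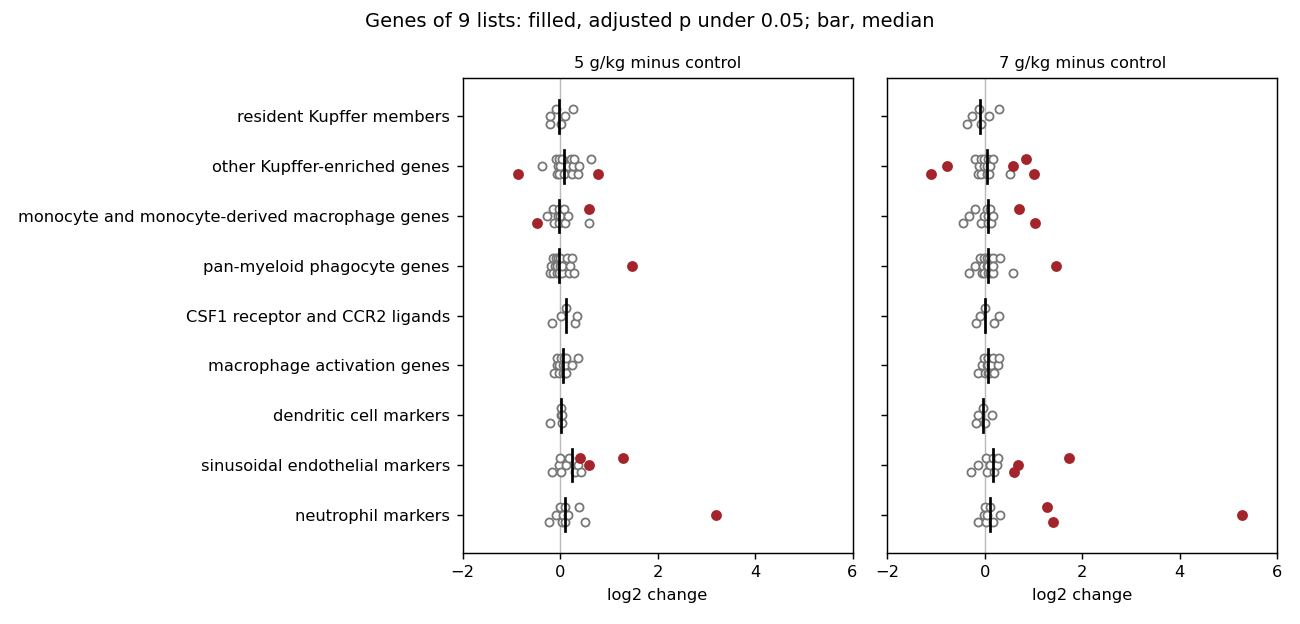
The log2 change of each tested gene (horizontal axis) of 9 gene lists (vertical axis) at 5 g/kg and at 7 g/kg ethanol against control, filled where the adjusted p was under 0.05, with a bar at each list's median. None of the 6 resident markers is filled at either dose, 5 of the 19 other Kupffer-enriched genes and 2 of the 13 monocyte genes are filled at 7 g/kg, and Cd14 lies at 1.47 at both doses.

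Markers of other liver and blood cells give the setting of these values, and their part in the members' values was not tested. For comparison, 2.21% of all genes were called higher at 5 g/kg and 4.67% at 7 g/kg. Of 12 sinusoidal endothelial genes, 3 rose and 0 fell at each dose, with Lyve1 up by 1.29 and 1.72 (SE 0.19 and 0.20). The other calls were Cdh5 and Stab1 at 5 g/kg, both lost without control replicate 1 or 3 or 5 g/kg replicate 1 or 4 (adjusted p = 0.0749 to 0.188), and Cdh5 and Pecam1 at 7 g/kg, both lost without control replicate 1 or 3 (adjusted p = 0.0975 to 0.159). Leaving out other single livers also ended the calls of Stab1 (control replicate 2, 5 g/kg replicate 2, 7 g/kg replicate 1 or 3), of Cdh5 at 5 g/kg (5 g/kg replicate 3) and of Pecam1 (control replicate 2, 5 g/kg replicate 2, 7 g/kg replicate 2 or 3), with adjusted p-values of 0.0550 to 0.166. With slide as a block, Cdh5 at 5 g/kg and Pecam1 at 7 g/kg lost their calls (adjusted p = 0.0995 and 0.137). A dimmer Stab1 probe gave 0.29 at 5 g/kg, with a limma adjusted p of 0.405 over all probes. Lyve1 passed at each dose in 24 of 24 alternatives. Of 11 neutrophil genes, 1 rose at 5 g/kg, Lcn2 by 3.21 (SE 0.46), and 3 rose at 7 g/kg: Lcn2 by 5.27 (SE 0.50), S100a9 by 1.41 (SE 0.23), and S100a8, which was not well above background in any control and was at least 2.41-fold higher in the liver channel. Lcn2 is also an acute-phase gene of hepatocytes, and S100a8 and S100a9 are also made by monocytes. Of 11 stellate cell genes, Hgf and Dcn rose at 5 g/kg, by 0.70 (SE 0.11) and 0.74 (SE 0.14), and Hgf rose at 7 g/kg, by 0.62 (SE 0.12); both calls at 5 g/kg were lost with Cy5 alone (adjusted p = 0.0515 and 0.147). A dimmer Hgf probe gave 0.49 at 5 g/kg and 0.41 at 7 g/kg, with limma adjusted p-values of 0.0414 and 0.0754 over all probes. Of 13 lymphocyte genes, Nkg7 rose at both doses, by 0.62 (SE 0.15) and 0.61 (SE 0.16), and Cd3e rose at 7 g/kg, by 0.44 (SE 0.12). All 3 lymphocyte calls were lost without control replicate 1 (adjusted p = 0.119 to 0.160) and with slide as a block (adjusted p = 0.0914 to 0.143). Other single livers that ended a call were control replicates 2 and 3 and 5 g/kg replicates 1, 2 and 3 for Nkg7 at 5 g/kg, control replicate 3 and 7 g/kg replicates 1 and 3 for Nkg7 at 7 g/kg, and control replicate 2 and 7 g/kg replicates 1 and 2 for Cd3e (adjusted p = 0.0599 to 0.131). At neither dose did a gene of these lists fall. Of 5 dendritic cell genes limma called 0 in each comparison, with 0 at an unadjusted p under 0.05. Per array, the median of the tested sinusoidal endothelial genes from the control mean was -0.027 to 0.069 in the controls, 0.18 to 0.28 at 5 g/kg and 0.087 to 0.30 at 7 g/kg.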

How the data were processed

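Spots were measured by the authors with Agilent Feature Extraction 11.5.1.1, per the file headers, and the deposited intensity values are spot medians of both channels and of their background. The deposited scanner files also hold a log10 ratio per spot, and the deposited series table holds log2 ratios per probe; both served as alternatives. Labels put liver in Cy5 on all arrays, with no dye swap. In limma 3.58.1 (R 4.3.3), signals were background-corrected (normexp, offset 50), normalized within arrays by loess with control and outlier-flagged spots at weight 0, and averaged per probe. Probes needed Cy5 well above background on at least 3 arrays and 2 values per group; each gene took its brightest probe. Of 41174 probes, 59.2% had a symbol. One model of the 3 group means over 10 arrays (7 residual and 7.22 prior degrees of freedom) gave moderated tests with Benjamini-Hochberg adjustment over 26124 genes. The pipeline was tested on simulated data.

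Named genes are all members, fixed ligands and monocyte or cytokine genes, and up to 4 tested genes of smallest p per list. The members and lists were chosen with earlier results of these data known. No source says more about how the mice were kept. The p-values set differences between groups against the spread of livers within groups, moderated over all genes. Over 9 same-numbered pairs, deviations from the group means correlated from -0.20 to 0.20, above 0.1 in 2. This cannot settle whether replicate numbers pair the samples. Over 8 pairs on the same slide they correlated from -0.18 to 0.24, above 0.1 in 5. Slide was not in the main model and served as an alternative.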

Additional observations from a re-analysis of the deposited data

How the results depend on the processing

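The number of mice and the signal of dim probes (Adgre1, Ccr2, Timd4) limit what could be seen. Over 24 alternatives, 10 of which leave out 1 liver, 3 of 573 member values passed the test, all of them Adgre1 at 7 g/kg against control: 1 member was called with plain background subtraction, with array weights (-0.41, adjusted p = 0.0379) and without 7 g/kg replicate 3. Leaving out single livers gave 0 to 1 members called there and 0 in the other comparisons. Adgre1 at 7 g/kg kept its sign in 24 of 24, from -0.51 to -0.12, with adjusted p-values of 0.0321 to 0.908, and 0.205 with slide as a block. Of the 24 member differences, 11 kept their sign throughout, and 41 of the 573 values had the opposite sign to the main fit. None of the differences was called in the main fit, so there was no called direction to turn.

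Over all genes, 985, 2350 and 410 were called at 5 g/kg against control, 7 g/kg against control and between the doses. Cy5 alone gave 124, 522 and 38. At 5 g/kg against control and between the doses, the scanner ratio gave 515 and 116, and the values of the series table gave 577 and 137. Leaving out single livers gave 464 to 1053, 1495 to 2343 and 222 to 429. At 5 g/kg against control, 464, 632 and 501 were called without control replicates 1, 2 and 3; at 7 g/kg, 1495 without control replicate 1; between the doses, 222 and 232 without 7 g/kg replicates 1 and 2, and 258 and 232 without 5 g/kg replicates 1 and 2. The share of higher genes was 58.7%, 51.9% and 42.2%, with median centring 75.9%, 67.5% and 52.5%, and with Cy5 alone 69.4%, 62.3% and 60.5%. The hepatocyte gene Ahsg, called higher at 5 g/kg (1.23), was at -0.080 with Cy5 alone; this check on list genes was chosen after seeing the data. The cause of these shifts was not tested.

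With the replicate block, 0, 0 and 0 members and 934, 2318 and 289 genes were called, and Adgre1 at 7 g/kg had an adjusted p of 0.114. Between the doses, C6 and Hmox1 then had adjusted p-values of 0.116 and 0.0587. Of the 10 arrays, 3 correlated best with an array of their own number, which cannot settle whether the numbers pair the samples.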
